A study of Mus musculus with 8 samples.

Results

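The genes named Ccdc, for coiled-coil domain containing, were examined in testes of Tmem232-/- and Tmem232+/+ mice. They were taken by symbol, as every row of the deposited table whose symbol begins with Ccdc and a number, without Ccdc36, Ccdc39, Ccdc40, Ccdc42, Ccdc65, Ccdc103, Ccdc114 and Ccdc151. Of 19906 genes in the table, 140 had such a symbol and 132 were members after these 8 were left out. Of the 132 members, 126 passed the filter on low counts and were tested.

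A coiled coil is a rod in which alpha helices wind around each other, and it serves proteins as a spacer, a scaffold or a means of pairing. The symbol Ccdc records this predicted feature alone, so the genes are not a family by descent and their products work in many parts of the cell. In the testis many of them build or anchor the sperm flagellum, whose axoneme is a cylinder of doublet microtubules, or join the sperm head to its tail. Others act at centrosomes, on endosomes and the Golgi, in mitochondria, in the spliceosome or at the ribosome.

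The sequencing compared testis transcripts with and without Tmem232, a gene of a transmembrane protein. At an age of 2 months, 4 Tmem232-/- and 4 Tmem232+/+ mice each gave 1 library of RNA from whole testis. The knockout was made with CRISPR-Cas9 in C57BL/6 zygotes by guides in introns 4 and 8, and every cell of a Tmem232-/- mouse carries it, both in the germ cells and in the somatic cells of the testis. The labels name no treatment in either group.

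Total counts were 15428421 to 16350871 per library. Levels are counts per 1000000 (CPM) after TMM normalization, listed for replicates 1 to 4 in that order, and a log2 fold change is that of the Tmem232-/- labelled libraries over the Tmem232+/+ labelled ones. Tmem232 itself had 148, 132, 123 and 122 CPM in the Tmem232-/- labelled libraries and 111, 106, 108 and 109.9 CPM in the Tmem232+/+ labelled ones, a log2 fold change of 0.27 (standard error, SE, 0.07, adjusted p = 0.0335, edgeR). The count of the targeted gene was thus not lower under the Tmem232-/- label. The deletion covers only a part of the gene and 1 count per gene cannot separate the deleted exons from the others, so that this count does not check the labels in either direction. The study also examined the protein in testis, which is not analysed here. Each library is therefore called by its label. Whole testis was sequenced, so that more cells of a type and more RNA per cell cannot be told apart.

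Of the 126 tested Ccdc genes, 26 were higher in the Tmem232-/- labelled libraries at an adjusted p under 0.05 (20.6%), and none was lower. Over all 15787 tested genes 10.3% were higher and 1.46% lower by the same test, the edgeR quasi-likelihood test, with p-values adjusted over all of them after Benjamini and Hochberg. The count of 0 lower was also 0 with DESeq2, but 3 with library size alone in edgeR (2.38%, against 2.63% of all tested genes in that fit) and 3 with log2(FPKM + 1) in limma (2.38%, against 2.95%). At an unadjusted p under 0.05 there were 10 lower (7.94%, against 10.5% of all tested genes) and 31 higher (24.6%, against 14.6%). A rise of 2-fold or more at an adjusted p under 0.05 was found in 14 members (11.1%, against 5.23% of all tested genes), and a fall of that size in none, where 0.0443% of all tested genes fell. The median log2 fold change was 0.03 over the 126 members and -0.05 over all tested genes, and 68 members lay above 0 (54%, against 39.2%). Among the 100 members that were not called the median was -0.05.

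**Figure D1:**
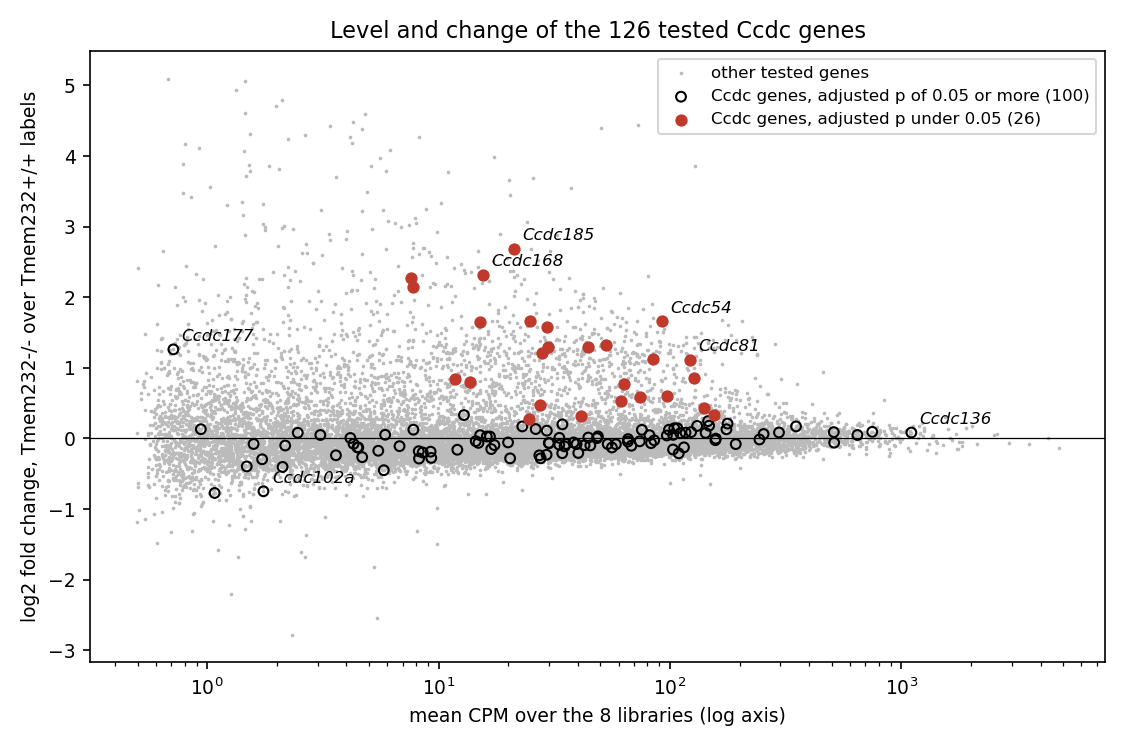
Mean CPM over the 8 libraries (horizontal, log axis) against the log2 fold change of the Tmem232-/- labelled libraries over the Tmem232+/+ labelled ones (vertical) for each tested gene. Filled points are the 26 Ccdc genes higher at an adjusted p under 0.05, open circles the other 100 tested Ccdc genes and grey points the other genes. The called members lie between 0.28 and 2.69 above the line at 0, while the Ccdc genes of the highest level lie close to it.

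The libraries of each label kept a similar order across the called members. Replicate 3 was the highest of the 4 Tmem232+/+ labelled libraries in 22 of the 26 genes and replicate 2 the lowest in 20. Replicate 1 was the highest of the Tmem232-/- labelled ones in 21, and replicate 3 the lowest in 18. In the 100 tested members that were not called, the same 4 libraries held these places in 58, 39, 50 and 28. The summed CPM of the 26 genes were 2118, 1838, 1675 and 1697 in replicates 1 to 4 labelled Tmem232-/- and 958, 863, 1130.5 and 1036 in the Tmem232+/+ labelled ones. The markers of elongating spermatids had their highest and lowest sums in the same 4 libraries. These sums were 2646, 2114, 1667 and 2502 CPM against 828, 627, 1172 and 830.5 CPM. Those of round spermatids had the same highest and lowest libraries. Within each label, spermatocyte markers were also highest in replicate 1 labelled Tmem232-/- and replicate 3 labelled Tmem232+/+. Markers of macrophages, endothelial cells and red blood cells had their lowest sums in those libraries. Spermatogonia and peritubular myoid cells had their highest in replicate 3 labelled Tmem232+/+, but in replicates 4 and 2 labelled Tmem232-/-. Sertoli and Leydig cells had their lowest in replicate 1 of both labels. Of the 12 markers of elongating spermatids 11 rose (median log2 fold change 1.64). Of 11 markers of round spermatids 10 rose (median 1.07, summed CPM of 1146 to 1445 against 602 to 842). Of 10 markers of spermatocytes none rose and 1 fell (median -0.12, 2271 to 2819 against 2748 to 2804 CPM). Spermatogonia had 3 of 8 markers lower (median -0.35, 189 to 209 against 231 to 258 CPM) and peritubular myoid cells 2 of 5 (median -0.35, 197 to 236 against 250.2 to 296 CPM). None of the markers of Sertoli cells (8), Leydig cells (7), macrophages (6), endothelial cells (5) and red blood cells (5) was called. The Leydig cell markers had a median of 0.46 (402 to 571 against 254 to 436 CPM) and those of red blood cells one of -0.63 (150.2 to 596 against 305 to 595 CPM). Sertoli cells had a median of -0.16 (1440 to 1839 against 1703 to 1798 CPM), macrophages 0.07 (53.8 to 84.9 against 54.7 to 85.8 CPM) and endothelial cells -0.01 (24.8 to 42.1 against 25.0 to 37.9 CPM). No marker was at 0 in all libraries, and Nanos3 of the spermatogonia was under 1 CPM. The sums of both kinds of spermatid, of spermatogonia and of peritubular myoid cells did not overlap between the groups, and those of the other lists did. The part of these levels in the changes of the Ccdc genes was not tested. Without replicate 3 labelled Tmem232+/+ the number of members higher was 29 (23.0%, against 11.7% of all tested genes in that fit), and without replicate 1 labelled Tmem232-/- it was 21 (16.5%, against 8.53%).

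**Figure D2:**
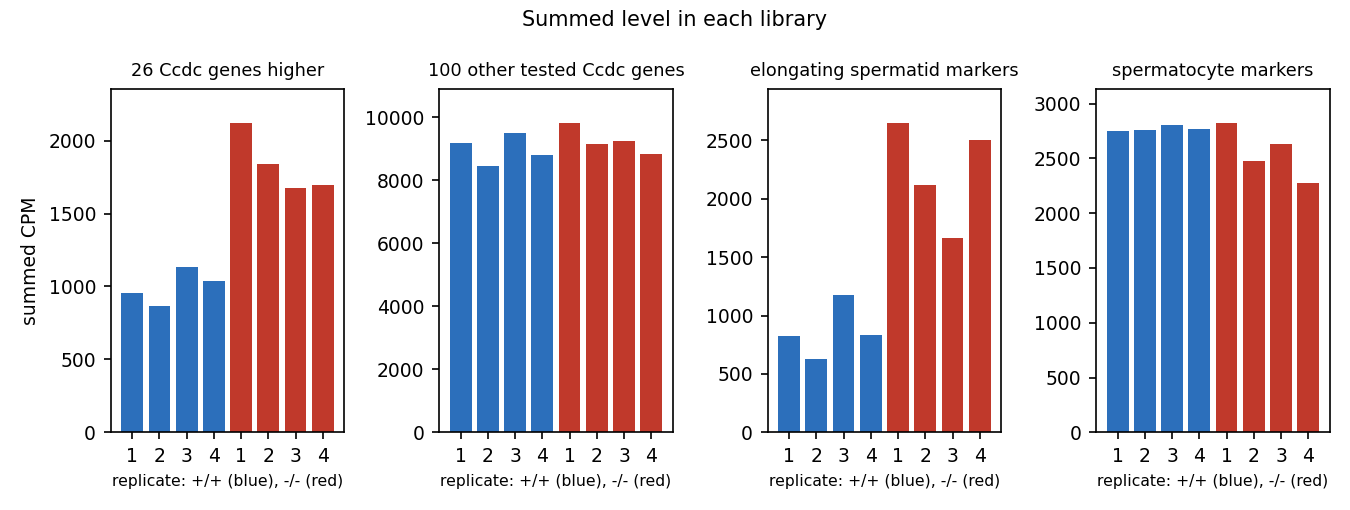
Summed CPM (vertical, from 0) in each library, with replicates 1 to 4 labelled Tmem232+/+ in blue and the Tmem232-/- labelled ones in red, 1 bar per mouse. The panels show the 26 Ccdc genes that were higher, the 100 other tested Ccdc genes, 12 markers of elongating spermatids and 10 of spermatocytes. The sums of the 26 genes and of the elongating spermatid markers do not overlap between the groups, which the choice of the 26 by their rise fixes for the first panel, whereas those of the 100 other genes and of the spermatocyte markers do.

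Promoters were read from RefSeq for GRCm38.p6 as 250 bases before to 50 after the transcript start that the promoter table gives for each gene. They were found for 106 of the 132 members and 22 of the 26 called ones. Short motifs were searched on both strands: TGACGT, the core of the cyclic AMP response element, the full palindrome TGACGTCA that contains it, GTTGCC, a part of the X-box bound by RFX factors, and TATAAA, the TATA box. TGACGT was present in 4 of the 22 called members (18.2%) and in 12 of 79 tested members that were not called (15.2%). It was in 10.9% of the promoters of tested genes called higher, 11.7% of those of tested genes and 8.37% of all promoters of this length. All 4 were among the 10 with a rise below 2-fold (40%), and the 12 that rose 2-fold or more had none (0%). This split rests on few promoters and was not tested. GTTGCC was present in 6 of the 22 (27.3%) and in 22 of the 79 (27.8%), and in 15.8% of the promoters of tested genes and 14.1% of all. TATAAA was present in 3 of the 22 (13.6%) and 8 of the 79 (10.1%), and in 9.38% of the promoters of tested genes and 15.7% of all. The palindrome TGACGTCA was in none of the 22, in 3 of the 79 (3.8%), and in 3.22% of the promoters of tested genes and 2.03% of all. A match describes these letters alone, and a missing match says only that they are not in this window. The 100 bases before that start are shown for the 4 called members with TGACGT, where the capitals mark its reverse complement ACGTCA, and for the 4 members with the largest rise, which lack it. They are given 5′ to 3′ on the strand of the gene. For Ccdc28a, Ccdc168 and Ccdc188 the start used lies inside the gene's RefSeq span, which begins upstream of the bases shown, so these sequences lie before an internal start.
Ccdc28a: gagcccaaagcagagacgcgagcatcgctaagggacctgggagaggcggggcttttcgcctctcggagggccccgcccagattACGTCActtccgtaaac
Ccdc186: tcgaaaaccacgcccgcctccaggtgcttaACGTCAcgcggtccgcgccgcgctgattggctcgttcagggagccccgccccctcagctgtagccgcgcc
Ccdc184: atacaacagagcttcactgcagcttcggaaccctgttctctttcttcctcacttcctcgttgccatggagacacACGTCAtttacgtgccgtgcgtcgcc
Ccdc175: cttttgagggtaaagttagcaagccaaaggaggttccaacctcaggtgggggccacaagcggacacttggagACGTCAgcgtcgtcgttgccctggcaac
Ccdc185: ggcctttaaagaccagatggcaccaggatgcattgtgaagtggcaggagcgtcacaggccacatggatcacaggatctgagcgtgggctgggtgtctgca
Ccdc168: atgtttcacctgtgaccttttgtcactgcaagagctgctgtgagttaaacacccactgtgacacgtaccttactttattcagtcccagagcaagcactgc
Ccdc188: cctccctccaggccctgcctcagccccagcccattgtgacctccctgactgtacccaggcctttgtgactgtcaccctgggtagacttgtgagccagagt
Ccdc159: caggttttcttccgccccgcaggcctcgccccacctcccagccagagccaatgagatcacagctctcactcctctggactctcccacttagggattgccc
They lie at chr10:18234982-18235081 (minus strand), chr19:56822200-56822299 (minus), chr15:98167706-98167805 (plus), chr12:72185030-72185129 (minus), chr1:182749181-182749280 (minus), chr1:44079747-44079846 (minus), chr16:18217779-18217878 (plus) and chr9:21927371-21927470 (plus). The motif begins 17, 70, 26 and 28 bases before that start in Ccdc28a, Ccdc186, Ccdc184 and Ccdc175.

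The members were then grouped by the role of their products, in lists made from general knowledge with earlier results of these data known. The counts below, also those of partner genes, stand beside 20.6% of the tested members and 10.3% of all tested genes higher. Lower were 0% of the tested members and 1.46% of all tested genes. Of 13 tested genes of the sperm flagellum and axoneme, 3 rose and the other 10 were not called (median log2 fold change 0.09). Ccdc63 (chr5:122108052-122138080), related to the docking complex of outer dynein arms and needed for the flagellum in mice, had 135, 119.5, 107 and 104 CPM in the Tmem232-/- labelled libraries and 49.5, 43.5, 61.6 and 58.3 CPM in the Tmem232+/+ labelled ones. Every library labelled Tmem232-/- lay above every other, and the log2 fold change was 1.13 (SE 0.12, adjusted p = 7.76e-05, edgeR). Ccdc183 (chr2:25608629-25617678), whose loss makes male mice infertile, had 79.7, 61.8, 49.8 and 59.8 CPM against 21.6, 19.2, 36.6 and 25.0 CPM. The groups did not overlap, replicate 3 labelled Tmem232+/+ came nearest to the others, and the log2 fold change was 1.30 (SE 0.19, adjusted p = 0.000783, edgeR). Ccdc105 (chr10:78746924-78787802), a tektin-like protein inside the doublet microtubules of sperm, had 139, 119, 104 and 108 CPM against 75.6, 61.8, 91.3 and 79.8 CPM. It too did not overlap between the groups, with a log2 fold change of 0.61 (SE 0.12, adjusted p = 0.00584, edgeR). Myl2 overlaps Ccdc63 and Slc1a6 overlaps Ccdc105 in the annotation, and both had a mean under 1 CPM in each group.

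The flagellar genes of the highest level were not called. Ccdc60 had the highest mean FPKM (fragments per kilobase of transcript, scaled to the library, a level per length) of all members, 334 ± 2.73 (SD, n = 4) in the Tmem232-/- labelled libraries and 320.2 ± 13.0 in the Tmem232+/+ labelled ones. Its CPM were 783, 778, 785 and 749.6 against 754, 682, 753 and 712. The groups overlapped, and the log2 fold change was 0.09 (SE 0.06, adjusted p = 0.373, edgeR). Ccdc181, a microtubule-binding protein of the flagellum, had 302 ± 21.7 against 291 ± 30.8 FPKM and a log2 fold change of 0.09 (SE 0.09). Ccdc113 and Ccdc96, which form a complex in the axoneme, had log2 fold changes of 0.09 (SE 0.10) and 0.06 (SE 0.08). Ccdc38, a protein of the manchette, had 0.05 (SE 0.10). Ccdc146, a protein of centrioles and microtubules, had 0.14 (SE 0.09). Its mean FPKM of 33.4 was below those of the called Ccdc105 (62.7) and Ccdc63 (41.5). Ccdc173, another protein inside the doublets, had 191 ± 35.3 (SD, n = 4) against 165 ± 32.8 CPM. None of these 7 genes passed the test. The small log2 fold change of Ccdc38, like those of Ccdc170 and Ccdc172 on the same list, turned its sign in some fits that left out a library.

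Genes of other proteins inside the doublet microtubules were compared as a list of 19, of which 7 rose and none fell (median log2 fold change 0.26). Over all tested genes 10.3% rose and 1.46% fell. The changes of largest size were those of Efhc2, 1.10 (SE 0.13), Tekt5, 0.81 (SE 0.15), and Ribc1, 0.70 (SE 0.14). The other 12 were not called.

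Of 5 genes of the sperm head, the acrosome and the head-tail junction, 2 rose and 3 were not called (median 0.08). The share that rose was 20.6% over all tested members. Ccdc188 (chr16:18214227-18220347), needed to join the head to the tail, had 12.5, 12.6, 9.74 and 15.6 CPM in the Tmem232-/- labelled libraries and 2.37, 1.21, 3.93 and 2.89 CPM in the Tmem232+/+ labelled ones. The groups were far apart for a gene of low level, with a log2 fold change of 2.28 (SE 0.27, adjusted p = 0.000145, edgeR). The deposited table places this entry on a scaffold and RefSeq places it on chromosome 16, so that the transcripts behind its count are uncertain. Ccdc28a, another gene linked to the head-tail junction, had 19.2, 15.9, 15.2 and 18.9 CPM against 10.2, 10.3, 9.75 and 9.70 CPM. The 4 Tmem232+/+ labelled libraries lay within a narrow range below all others, and the log2 fold change was 0.79 (SE 0.10, adjusted p = 0.000284, edgeR). Its paralog Ccdc28b, linked to cilia and centrosomes, had 7.92, 6.72, 6.26 and 9.90 CPM against 6.85, 8.96, 9.63 and 9.46 CPM. These groups overlapped and the log2 fold change was -0.18 (SE 0.16, adjusted p = 0.532, edgeR), and the difference between the paralogs was not tested.

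The acrosomal genes Ccdc136 and Ccdc62 were not called. Ccdc136, with 286 ± 14.0 (SD, n = 4) FPKM in the Tmem232-/- labelled libraries and 278 ± 23.1 FPKM in the others, had a log2 fold change of 0.08 (SE 0.07). Ccdc62 had 243 ± 13.9 (SD, n = 4) against 245 ± 15.5 CPM, and Ccdc87, another gene of the acrosome, 114 ± 11.8 against 108 ± 11.7 CPM. Of 9 genes of other proteins of the head-tail junction 8 rose (median 1.25), where 10.3% of all tested genes did. Among them were Spatc1 with 2.77 (SE 0.26), Odf1 with 1.33 (SE 0.15) and Pmfbp1 with 1.28 (SE 0.12). Odf1 and Sun5 of this list also stand among the spermatid markers above.

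The genes known in testis but of little known function held 13 of the 26 calls, and 9 of their 22 tested genes were not called. Of all tested members 20.6% were called higher, and of all tested genes 10.3%. This list too was made with earlier results of these data known, so its share is no independent finding. Of the 13 that rose, 9 did so by 2-fold or more, and the median log2 fold change of the 22 was 0.66. Ccdc185 (chr1:182747126-182749180) had 48.3, 34.7, 22.1 and 42.1 CPM in the Tmem232-/- labelled libraries and 4.80, 2.54, 10.9 and 4.67 CPM in the Tmem232+/+ labelled ones. The lowest of the first still had more than the highest of the second, although each group was widely spread, and the log2 fold change of 2.69 (SE 0.36, adjusted p = 0.000365, edgeR) was the largest of all members. Ccdc168 (chr1:44055869-44082447) had 33.3, 25.9, 18.1 and 26.6 CPM against 4.67, 4.72, 6.65 and 4.73 CPM. Replicate 3 labelled Tmem232+/+ stood above the other 3 of its group and well below the other group, and the log2 fold change was 2.32 (SE 0.19, adjusted p = 2.41e-05, edgeR). Its level per length was low, 1.14 ± 0.265 (SD, n = 4) against 0.233 ± 0.0457 FPKM, and on the scale of log2(FPKM + 1) the difference was 0.79.

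Ccdc159 (chr9:21927471-21935872) had 14.3, 11.7, 9.49 and 14.9 CPM against 2.62, 2.42, 3.67 and 2.70 CPM. The groups did not overlap, with a log2 fold change of 2.14 (SE 0.18, adjusted p = 2.73e-05, edgeR). It overlaps Plppr2 by 189 and Tmem205 by 65 bases, both of which rose (0.68 and 0.65, SE 0.16 and 0.15, adjusted p = 0.0132 and 0.014), and reads in the shared bases cannot be assigned to one gene. Ccdc169 (chr3:55137339-55175250) had 50.1, 35.8, 30.2 and 35.8 CPM against 11.3, 7.69, 16.9 and 12.0 CPM. Replicate 1 labelled Tmem232-/- was the highest and replicate 2 labelled Tmem232+/+ the lowest, and the log2 fold change was 1.66 (SE 0.21, adjusted p = 0.000277, edgeR).

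Ccdc54 (chr16:50589859-50591154) had 168, 149.6, 124 and 123 CPM against 47.2, 33.6, 50.5 and 47.6 CPM. Its log2 fold change was 1.66 (SE 0.14, adjusted p = 2.62e-05, edgeR), without overlap. It had the highest mean FPKM of the called members, 124 ± 17.4 (SD, n = 4) against 40.2 ± 6.55. Ccdc187 (chr2:26243449-26300204) had 23.5, 26.0, 18.5 and 23.4 CPM against 5.98, 5.33, 9.50 and 8.41 CPM. Ccdc27 (chr4:154026644-154042745) had 53.2, 41.2, 40.2 and 41.9 CPM against 12.7, 8.72, 23.9 and 13.8 CPM. Neither gene overlapped between the groups, and in Ccdc27 replicate 3 labelled Tmem232+/+ was the highest of its group and replicate 1 labelled Tmem232-/- stood above the others of its own. Their log2 fold changes were 1.64 (SE 0.18, adjusted p = 8.97e-05) and 1.58 (SE 0.24, adjusted p = 0.000824) by edgeR.

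Ccdc33 (chr9:58028673-58118823) had 49.1, 41.0, 38.4 and 41.1 CPM against 15.3, 12.4, 23.1 and 18.3 CPM, and Ccdc70 (chr8:21969775-21974055) had 51.9, 37.1, 31.8 and 36.2 CPM against 15.3, 10.9, 24.5 and 17.1 CPM. In both, replicate 3 was the highest and replicate 2 the lowest of the Tmem232+/+ labelled libraries, and the groups did not overlap. The log2 fold changes were 1.29 (SE 0.16, adjusted p = 0.000227) and 1.21 (SE 0.22, adjusted p = 0.00288) by edgeR. Stra6 shares 55031 bases with Ccdc33 in the annotation and was not called (-0.22, SE 0.12).

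Smaller rises were found in Ccdc116, Ccdc182, Ccdc184 and Ccdc89. Ccdc116 and Ccdc182 lay just under 2-fold, at 1.81-fold and 1.80-fold, whereas Ccdc81 and Ccdc63 lay just over it, at 2.17-fold and 2.19-fold. Ccdc116 had 164 ± 11.0 (SD, n = 4) against 90.8 ± 8.57 CPM and Ccdc182 15.1 ± 2.65 against 8.39 ± 2.00 CPM. Ccdc184 had 31.8 ± 3.36 against 22.9 ± 2.95 CPM with a log2 fold change of 0.47 (SE 0.11), and its call was lost without replicate 1 labelled Tmem232-/- (adjusted p = 0.0505, edgeR) and with the replicate block (0.0703). Ccdc89 was just inside the limit on adjusted p, with 199, 162, 167 and 165 CPM against 135, 119.9, 156 and 137 CPM, a log2 fold change of 0.34 (SE 0.09) and an adjusted p of 0.0383 by edgeR. Its groups did not overlap, but the call was lost in 9 of 14 alternative settings. The 9 tested genes of this list that were not called had log2 fold changes of 0.01 to 0.33, the highest being that of Ccdc7a (SE 0.11, adjusted p = 0.0836, edgeR). Its neighbour in name, Ccdc7b, had 0.25 (SE 0.13, adjusted p = 0.277, edgeR).

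**Figure D3:**
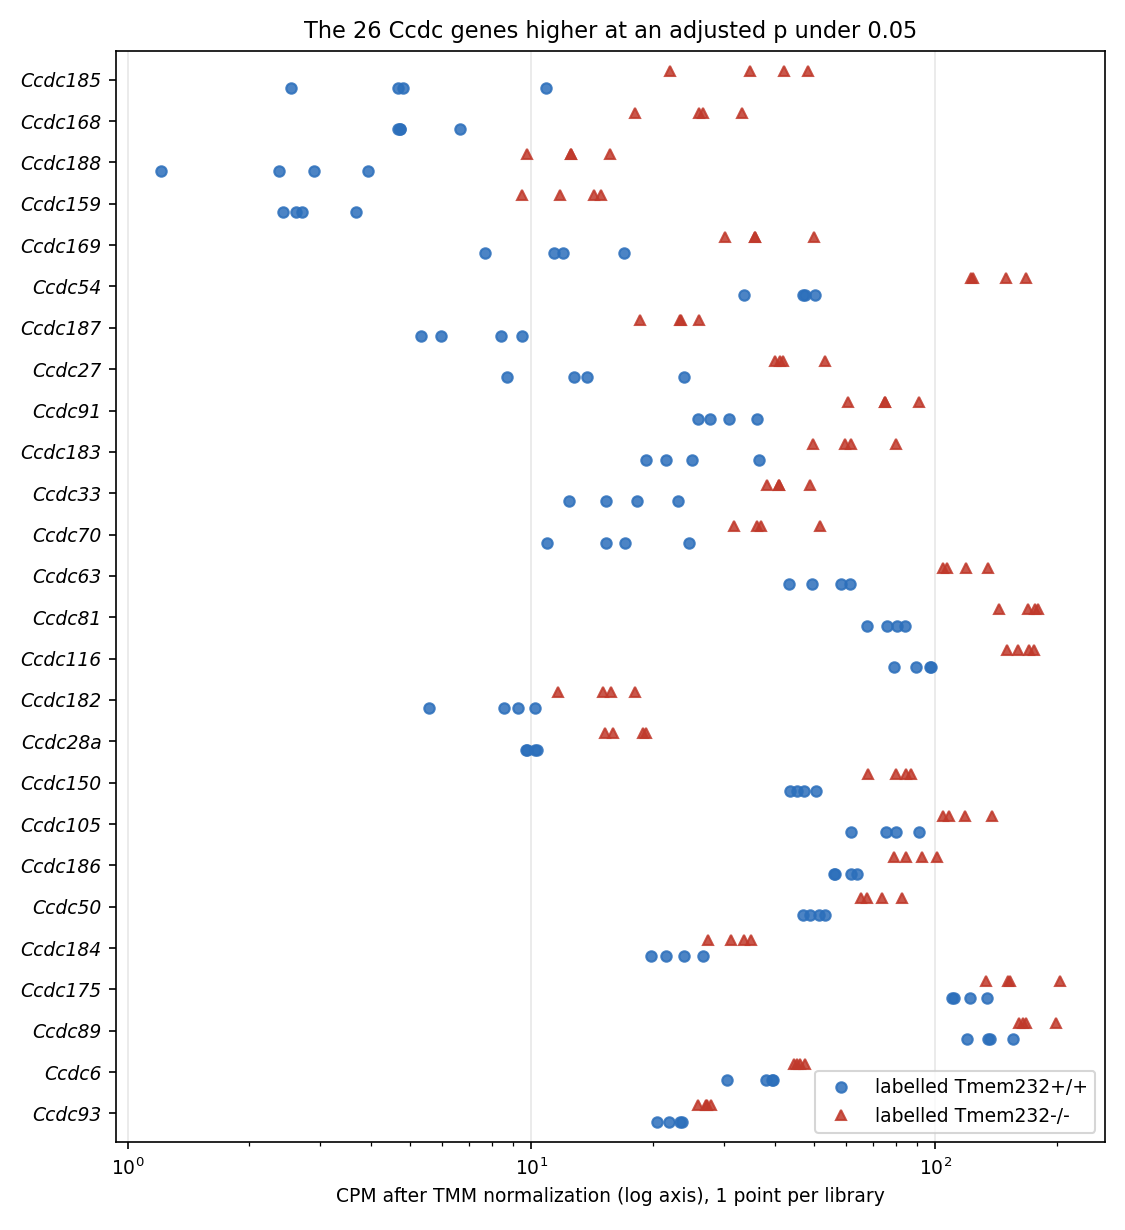
CPM after TMM normalization (horizontal, log axis) of the 26 Ccdc genes higher at an adjusted p under 0.05, ordered by log2 fold change, with 1 point per library. Circles are the 4 Tmem232+/+ labelled libraries and triangles the 4 labelled Tmem232-/-. The groups do not overlap in 25 of the 26 genes, and in Ccdc175 replicate 4 labelled Tmem232-/- lies just below replicate 3 labelled Tmem232+/+.

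Of 19 genes of the centrosome, the centriole and centriolar satellites, only Ccdc81 rose (median -0.10), against 20.6% of all tested members. Ccdc81 (chr7:89866148-89903629) had 179.5, 176, 169.6 and 144 CPM in the Tmem232-/- labelled libraries and 75.8, 67.9, 80.6 and 84.3 CPM in the Tmem232+/+ labelled ones. Replicate 4 was the lowest of the first group and the highest of the second, with a wide gap between the groups and a log2 fold change of 1.12 (SE 0.09, adjusted p = 2.41e-05, edgeR). The other 18 had log2 fold changes of -0.77 to 0.20. Ccdc92, a centriolar protein with the second highest mean FPKM of the members, had 309 ± 12.2 (SD, n = 4) against 328 ± 23.1 FPKM and a log2 fold change of -0.06 (SE 0.07). Ccdc68, a protein of the mother centriole, had the lowest log2 fold change of all members, -0.77, but with an SE of 0.39 and 0.795 ± 0.496 (SD, n = 4) against 1.36 ± 0.161 CPM it did not pass the test.

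Of 10 genes of endosomes, the Golgi and vesicle traffic, 4 rose (median 0.05), against 20.6% of all tested members. Ccdc91 (chr6:147475871-147632613), a partner of the GGA adaptors at the trans-Golgi network, had 91.4, 75.1, 61.0 and 75.1 CPM against 27.6, 25.9, 36.2 and 30.8 CPM. The groups were well apart, with a log2 fold change of 1.33 (SE 0.13, adjusted p = 5.75e-05, edgeR). Ccdc186, which acts in the making of dense-core vesicles, had 89.4 ± 9.66 (SD, n = 4) against 59.6 ± 3.95 CPM and a log2 fold change of 0.58 (SE 0.09). Ccdc50, a ubiquitin-binding protein in the signalling of the EGF receptor, had 72.5 ± 7.70 against 50.2 ± 2.72 CPM and 0.53 (SE 0.08). Ccdc93, a subunit of the Commander complex that recycles membrane proteins from endosomes, had 27.9, 27.1, 25.9 and 27.2 CPM against 21.9, 20.4, 23.6 and 23.3 CPM. Its difference was the smallest of the 26 (log2 fold change 0.28, SE 0.08, adjusted p = 0.0367, edgeR), and the call was lost in 10 of 14 alternative settings. Its partner in the complex, Ccdc22, had -0.13 (SE 0.12), and of 13 other Commander genes none was called by edgeR (median -0.11). Over all tested genes 10.3% were higher and 1.46% lower. Ccdc115, which helps to assemble the vacuolar ATPase, had 31.8 ± 1.83 against 36.7 ± 1.75 CPM without overlap, and its adjusted p was 0.0962 (edgeR).

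None of the 21 tested members with roles in mitochondria and the endoplasmic reticulum (7), RNA splicing and the exon junction (5), the nucleolus and ribosome (4), secretion (4) and meiotic chromosomes (1) was called. The share called was 20.6% over all tested members. The medians of the 5 lists were -0.08, -0.20, -0.09, -0.12 and -0.13. Ccdc97, a protein bound to the splicing factor SF3B, came nearest to a call, with 98.2, 96.7, 104 and 107 CPM in the Tmem232-/- labelled libraries and 119, 112, 125 and 112 CPM in the Tmem232+/+ labelled ones. All of the first lay below all of the second, by a log2 fold change of -0.21 (SE 0.06, adjusted p = 0.0612, edgeR), just outside the limit. Ccdc12 and Ccdc9, of the spliceosome and the exon junction, had -0.28 (SE 0.12) and -0.20 (SE 0.08). None of 14 other spliceosome genes was called (median -0.09), where 10.3% of all tested genes were higher and 1.46% lower. Ccdc51, of a mitochondrial potassium channel, had 1.82 ± 0.331 (SD, n = 4) against 2.41 ± 0.0617 CPM. Ccdc155, also called Kash5, which ties meiotic telomeres to dynein, had 110.1 ± 6.61 against 120.0 ± 7.31 CPM and a log2 fold change of -0.13 (SE 0.07).

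**Figure D4:**
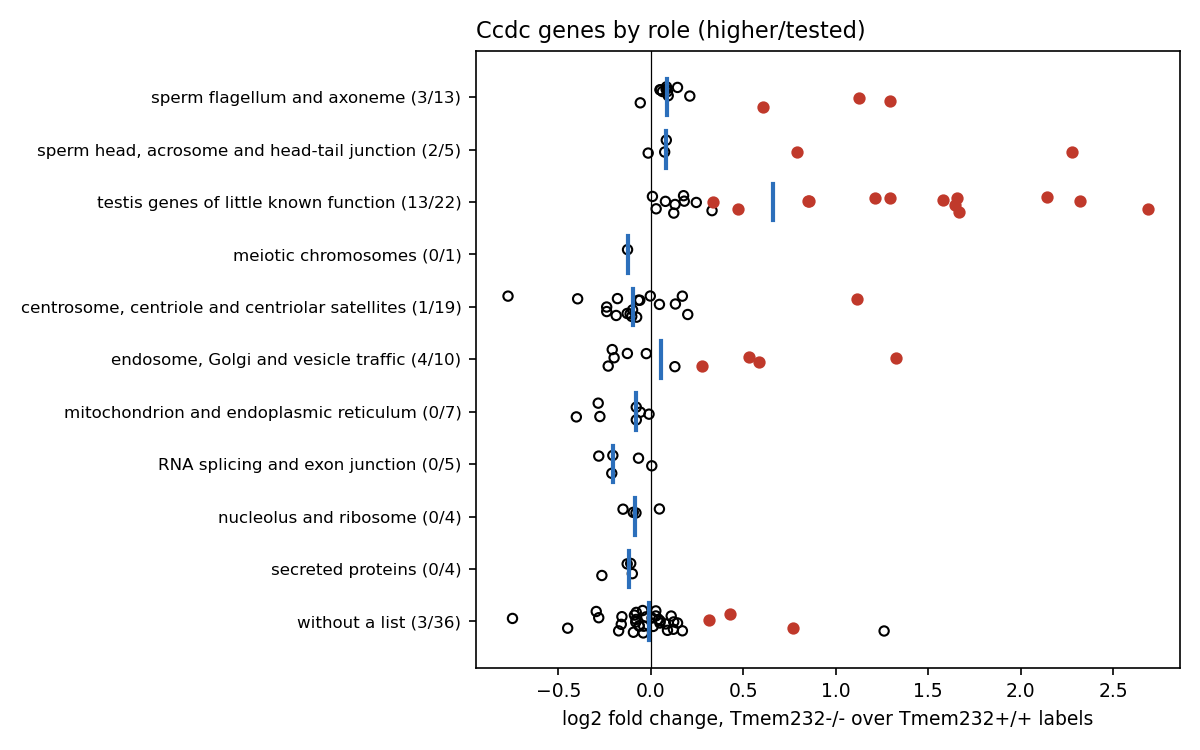
Log2 fold change (horizontal) of each tested Ccdc gene by the role of its product (vertical), with the number higher and the number tested in brackets. Filled points had an adjusted p under 0.05, open circles did not, and the vertical bar is the median of the list. In the testis genes of little known function 13 of 22 points are filled, against 20.6% of all tested members, and none lies left of 0. The lists were made with earlier results of these data known.

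Of 36 tested members without a role list, 3 rose, none by 2-fold, against 20.6% of all tested members. The 3 are named here after their values were seen. Ccdc150 had 79.8 ± 8.46 (SD, n = 4) against 46.8 ± 3.02 CPM and a log2 fold change of 0.77 (SE 0.09, adjusted p = 0.000119, edgeR). Ccdc6, known for its fusion with RET in thyroid tumours, had 46.3, 45.6, 44.6 and 47.6 CPM against 38.2, 39.7, 30.5 and 39.4 CPM. Replicate 3 labelled Tmem232+/+ was here the lowest library, unlike in most called members, and the log2 fold change was 0.32 (SE 0.09, adjusted p = 0.0380, edgeR). The call was lost in 7 of 14 alternative settings, among them library size alone (adjusted p = 0.0631, edgeR). Ccdc175 had 204, 153, 151 and 134 CPM against 109.8, 111, 134 and 122 CPM. It was just inside the limit on adjusted p and the only called member whose groups overlapped (exact permutation test over the 70 arrangements of the libraries, two-sided p = 0.0571), with a log2 fold change of 0.43 (SE 0.12, adjusted p = 0.0413, edgeR). Its call was lost in 8 of the 14 settings, and without replicate 1 labelled Tmem232-/- the log2 fold change was 0.29 (adjusted p = 0.0780, edgeR). For each of the other 25 called members the same exact test gave 0.0286, the smallest p possible for 4 libraries against 4. Their groups do not overlap, which fixes this value, so that it adds nothing to the lack of overlap.

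Just outside the limit on adjusted p lay Ccdc102a, with 1.86, 1.26, 0.949 and 1.17 CPM in the Tmem232-/- labelled libraries and 2.12, 2.24, 1.90 and 2.52 CPM in the others. The first lay below the second without exception, by a log2 fold change of -0.75 (SE 0.23, adjusted p = 0.0574, edgeR), at 15 to 41 counts per library. Ccdc177 had a log2 fold change of 1.26 but 2 to 23 counts per library, and its adjusted p was 0.0840, or 0.0339 without replicate 3 labelled Tmem232+/+ (edgeR). Seen by overlap alone, all Tmem232-/- labelled libraries lay above the others in 26 tested members (20.6%, against 11.8% of all tested genes), namely 25 of the called ones and Ccdc180, named after its values were seen, and below them in 7 (5.56%, against 6.88%).

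Levels per length were compared as FPKM. The median of the mean FPKM was 16.9 in the 26 called members and 15.7 in the 100 others, but the 12 members of the highest mean FPKM, from Ccdc60 with 327 to Ccdc62 with 95.3, were all among the others. The thirteenth was Ccdc54 with 82.0. Ccdc30, the fifth, had 298 ± 15.9 (SD, n = 4) against 266 ± 24.8 FPKM and a log2 fold change of 0.17 (SE 0.08, adjusted p = 0.197, edgeR).

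The called members were spread over 15 chromosomes, with at most 4 on any of them. Counted by gene structure, of 14 tested members with 1 coding exon 7 rose (50%), 4 of them by 2-fold or more, and of 112 with 2 or more coding exons 19 rose (17%). Over all tested genes these shares were 20.5% and 9.27%. The 7 were Ccdc54, Ccdc70, Ccdc89, Ccdc168, Ccdc182, Ccdc184 and Ccdc185, all of the list of testis genes of little known function. The 7 members with 1 coding exon that were not called were Ccdc8, Ccdc71, Ccdc71l, Ccdc87, Ccdc96, Ccdc160 and Ccdc177. Except for Ccdc177, their log2 fold changes lay between -0.16 and 0.08.

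**Figure D5:**
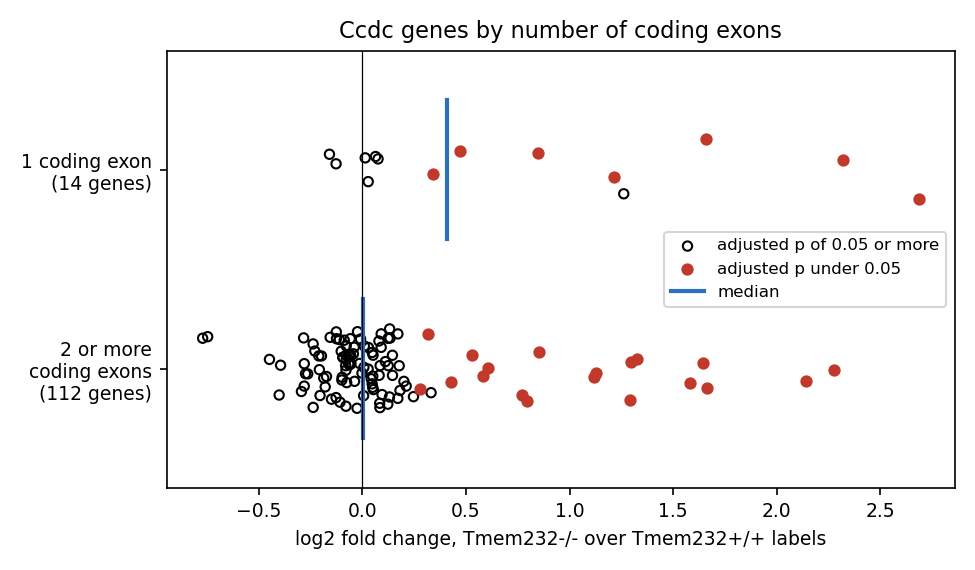
Log2 fold change (horizontal) of the tested Ccdc genes with 1 coding exon (14 genes) and with 2 or more (112 genes). Filled points had an adjusted p under 0.05, open circles did not, and the bar is the median, 0.41 and 0.00. The shares of filled points are 50% and 17%.

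The 6 members that were not tested, Ccdc85a, Ccdc121, Ccdc125, Ccdc153, Ccdc190 and Ccdc194, had at most 17 counts in any library. Ccdc121 had 1 count in replicate 1 labelled Tmem232-/- and none in the other 7 libraries, and Ccdc194 at most 1 count in each. For a library without a count, the expected count can still be as high as about 3, by counting error alone. At this depth no difference was detectable in either gene, which stand at or under that floor in both groups.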

How the data were processed

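RNA-seq of 8 mouse testis libraries was analysed, all grouped by their labels. The authors mapped reads to GRCm38.p6 with HISAT and Bowtie2 and counted genes with StringTie and featureCounts. The authors' deposited values hold estimated counts per gene without scaling, of which 10.7% to 11.2% in a library are not whole, so they were rounded. Their deposited FPKM divide these by transcript length and library size. The deposited columns of group means and of the authors' own comparison (fold changes, p-values and q-values) were not used. The kit is not stated to mark strand, so reads of overlapping genes may be shared.

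Counts were filtered by filterByExpr at default settings, scaled by TMM and compared by the quasi-likelihood test of edgeR 4.0.16 in R 4.3.3, without covariates, with Benjamini-Hochberg adjustment over all 15787 tested genes. The steps were tested on simulated data. An exact two-sided permutation test of CPM over 70 arrangements was added for single genes. Alternatives were DESeq2 1.42.0, its size factors, library size alone, no filter on low counts, log2(FPKM + 1) with limma 3.58.1, a block for the replicate number, and fits that each dropped 1 library.

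The members and the lists of roles, partners and markers were chosen with earlier results of these data known, and the role lists come from general knowledge. Genes were named mainly as members called at 2-fold or more, the 5 members and 5 called members of highest FPKM, and role list members. Members next to the limits or with at most 3 counts per library in a group were added. Up to 3 partner genes per list were named by size of change. Further genes are named where a set is listed in full, where genes or lists overlap, or where another setting changed a call. Positions, promoters and overlaps come from RefSeq and coding exons from GENCODE, both for GRCm38. Python 3.11.15, numpy 2.4.6 and pandas 2.3.3 were used for the counts and lists.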

Additional observations from a re-analysis of the deposited data

Results flagged for a closer look

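In 7 of 94 groups of 4 libraries examined, 1 library stood far from the other 3 of its group, with a gap to the nearest of at least 0.84 of the group's range. Chance marks about 1 in 20 groups, or 4.7 of these 94. All 7 libraries were replicate 1 labelled Tmem232-/- or replicate 3 labelled Tmem232+/+. Replicate 1 labelled Tmem232-/- was high in Ccdc27, with 53.25 CPM against 40.16 to 41.87 CPM in the other 3, in Ccdc89, with 198.9 against 161.6 to 167.3 CPM, in Ccdc173, with 243.0 against 168.3 to 179.9 CPM, and in Ccdc62, with 263.4 against 233.8 to 238.2 CPM. Replicate 3 labelled Tmem232+/+ was high in Ccdc168, with 6.65 CPM against 4.673 to 4.729 CPM, and in Ccdc7b, with 165.7 against 121.7 to 124.1 CPM, and low in Ccdc6, with 30.52 against 38.19 to 39.66 CPM. The summed markers of elongating spermatids, round spermatids and spermatocytes were also highest in these libraries within each label. Those of macrophages, endothelial cells and red blood cells were lowest there. Other lists shared only 1 of these places. Spermatogonia and peritubular myoid cells were also highest in replicate 3 labelled Tmem232+/+, and Sertoli and Leydig cells lowest in replicate 1 labelled Tmem232-/-. The part of these marker levels in the values of the 7 groups was not tested.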

How the results depend on the processing

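Over 14 alternatives the number of members higher was 21 to 29 (16.5% to 23.0%, where 8.34% to 11.7% of all tested genes were higher), and the number higher by 2-fold or more 13 to 15. No member was lower in the fit reported, whereas 3 were lower with library size alone and 3 with log2(FPKM + 1) in limma (Ccdc61, Ccdc97 and Ccdc102a in both, Ccdc61 being named after its values were seen). With single libraries left out the number lower was 0 to 1, the 1 being Ccdc102a without replicate 1 labelled Tmem232-/- and Ccdc152 without replicate 1 labelled Tmem232+/+. The cause was not tested. Of the 26 members higher, 21 kept the call in every alternative and none changed direction. All 5 others lost the call with the replicate block (adjusted p of 0.0703 for Ccdc184, 0.0746 for Ccdc89, 0.0766 for Ccdc6, 0.105 for Ccdc175 and 0.155 for Ccdc93, edgeR). Ccdc6, Ccdc89 and Ccdc93 also lost it with library size alone, and Ccdc175, Ccdc89 and Ccdc93 with log2(FPKM + 1) in limma (up to 0.113). In all, the call was lost by Ccdc184 in 2, Ccdc6 in 7, Ccdc175 in 8, Ccdc89 in 9 and Ccdc93 in 10 of the 14. With libraries left out, Ccdc184 lost it without replicate 1 labelled Tmem232-/- (adjusted p = 0.0505, edgeR). The other 4 lost it in fits without various libraries of either label, with adjusted p-values of up to 0.0860 for Ccdc6, 0.107 for Ccdc175, 0.108 for Ccdc89 and 0.101 for Ccdc93 in these edgeR fits. Without replicate 3 labelled Tmem232+/+, Ccdc177 (0.0339), Ccdc7b (0.0375) and Ccdc30 (0.0426) were called, and Ccdc7a was called without replicate 4 labelled Tmem232-/- (0.0438) or replicate 1 labelled Tmem232+/+ (0.0206). Of the named members that were not called, 21 were followed through the alternatives, and 5 of these changed sign. Ccdc62, at -0.01, was 0.0078 with DESeq2, 0.0100 with its size factors and 0.0285 without a filter. The median over all tested genes, -0.054 in the fit reported, was -0.021, -0.029 and 3.25e-05 in these settings. The fit with the size factors held the same 15787 genes, whereas DESeq2 held 19906 and the fit without a filter 19874. The medians of these larger sets therefore do not compare the same genes. Whether all genes moved in common was not tested, and these values say nothing about Ccdc62 alone. With single libraries left out Ccdc62 lay between -0.0550 and 0.0601 and Ccdc170 between -0.0329 and 0.172. Ccdc38 lay between -0.0051 and 0.138, Ccdc172 between -0.107 and 0.0124 and Ccdc92 between -0.104 and 0.0137. Nothing says that the replicate numbers pair the mice, and deviations of libraries with the same number correlated at -0.061, 0.072, -0.332 and -0.105. With the replicate block 21 members were higher, 14 by 2-fold or more, and 0 lower. Low counts limit members such as Ccdc177 and Ccdc102a.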
